A study of Mus musculus with 96 samples.

Results

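Skeletal muscle libraries with high Myh7 were compared with libraries with low Myh7. Myh7 encodes the slow myosin heavy chain of type I muscle fibres. The 2 sides were chosen by Myh7 itself: of the 15 skeletal muscle libraries, the 5 with the highest CPM, the estimated counts of a gene per 1000000 counts in its library, form the high-Myh7 side and the 5 with the lowest form the low-Myh7 side. The 5 libraries between them entered no comparison of sides, and the whole series holds 96 libraries of 7 mouse tissues. Per the labels, the muscle samples come from mice of 2 months, 3 from each of 5 genotypes: the reprogrammable strains 4Fj, 4FsB, 4Fk and 4FsA, made for inducing reprogramming factors in the living animal, and WT. The expression table names a muscle library by tissue and a running number only, so the genotype of a library is unknown here, and genotype and Myh7 side cannot be told apart. The promoter and site of each strain's transgene, the muscle that was sampled and whether samples came from separate animals are not stated in the sources at hand. The p-values below therefore measure only the spread between these libraries, which may be technical. RNA came from whole frozen tissue, so fewer slow fibres and less RNA per slow fibre cannot be told apart.

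Skeletal muscle is a mosaic of fibres that differ in their contractile proteins. Type I fibres contract slowly, rely on oxidative metabolism and carry the slow isoforms of myosin, of the troponin subunits and of the calcium pump of the sarcoplasmic reticulum. Type IIA, IIX and IIB fibres carry the faster myosins encoded by Myh2, Myh1 and Myh4. In mouse limbs most muscles are built mainly of fast fibres, while the soleus is rich in slow fibres. Calcineurin and NFAT signalling, MEF2 factors, PGC-1 coactivators and oestrogen-related receptors are known to favour the slow, oxidative state.

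Myh7 was at 393, 180.1, 27.0, 8.25 and 3.22 CPM in the high-Myh7 libraries 3, 9, 15, 12 and 2. It was at 1.03, 0.943, 0.602, 0.350 and 0.109 CPM in the low-Myh7 libraries 5, 10, 6, 7 and 11. All lists of 5 values below keep these 2 orders of libraries. The high side is thus uneven: libraries 3 and 9 stand far above the other 3, and the lower end of the high side meets the libraries between. The last library inside the high side had 3.22 CPM and the first outside it 2.90 CPM, while the last inside the low side had 1.03 CPM and the first outside it 1.28 CPM. The low-Myh7 values rest on 13, 12, 7, 4 and 1 estimated counts, against 5256, 2223, 280.5, 84.4 and 57.0 in the high-Myh7 libraries. No test is given for Myh7, because it chose the sides.

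**Figure D1:**
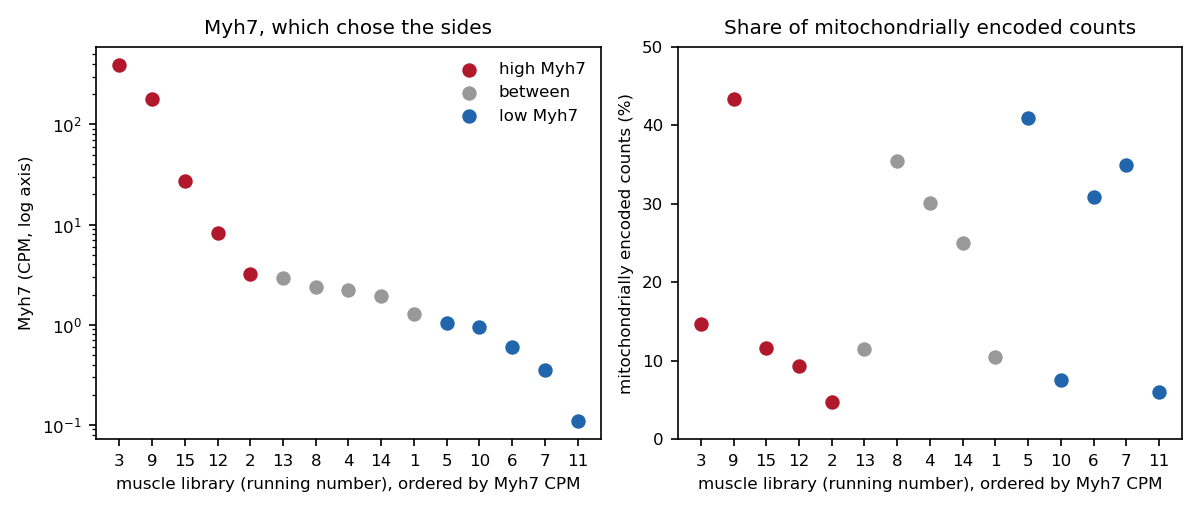
Myh7 in CPM on a log axis (left) and the percentage of counts from mitochondrially encoded genes (right) in each of the 15 muscle libraries, ordered by Myh7, with the high-Myh7 libraries in red, those between in grey and the low-Myh7 libraries in blue. Myh7 falls from 393 CPM in library 3 to 0.109 CPM in library 11, while the mitochondrial share has no such order and spans 4.67% to 43.4% on the high side and 6.03% to 41.0% on the low side.

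Total estimated counts ran from 10233374 to 17706733 in the high-Myh7 libraries and from 9204513 to 12725496 in the low-Myh7 libraries. A count of 0 allows up to 0.169 to 0.326 CPM over the 15 libraries, by counting error only. Because the mitochondrially encoded share differed so much, the levels below are scaled CPM, in which the library total was adjusted by TMM factors computed over the 15 libraries. With plain CPM, 426 genes were higher and 2 lower without overlap of the sides, against 141 and 73 with scaled CPM, and the median log2 ratio of side means over all genes was 0.40 with plain CPM and 0.03 with scaled CPM. All 10 libraries carried Y-linked counts, at 83.2 to 243 CPM, while library 1, which lies between the sides, had 0. Library 1 enters the values below that use all 15 libraries, and the low side where sides are chosen by scaled CPM. The tissue label was checked against heart genes: in the 10 libraries Nppa, Nppb, Mybpc3, Myl7 and Ryr2 stayed at or below 0.525 scaled CPM and Tnni3 at or below 1.25, while Myh4 was at 16540 or more.

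The promoters of 4 slow genes whose levels are described next are shown first. These genes were highest in the same 2 libraries, and their promoters hold a match to 1 of 3 muscle motifs. The light chain gene Myl2 was highest in the same libraries, and its 2 promoters in the table hold no match and are not shown. The sequences are RefSeq's, of build GRCm38.p6, which is not the build named in the submitters' processing notes, and run 5′ to 3′ on the gene's strand from 250 bases before to 50 after the start of the gene. Capitals mark matches to the M-CAT motif CATTCC, bound by TEAD factors, to the MEF3 motif TCAGGTT, bound by homeobox factors, or to the MEF2-like motif CTANNNNTA, on either strand. The Tnni1 promoter is at chr1:135799171-135799470 on the plus strand, the Tnnt1 promoter at chr7:4515926-4516225 on the minus strand, the Tnnc1 promoter at chr14:31208062-31208361 on the plus strand and the Myl3 promoter at chr9:110763428-110763727 on the plus strand.
Tnni1: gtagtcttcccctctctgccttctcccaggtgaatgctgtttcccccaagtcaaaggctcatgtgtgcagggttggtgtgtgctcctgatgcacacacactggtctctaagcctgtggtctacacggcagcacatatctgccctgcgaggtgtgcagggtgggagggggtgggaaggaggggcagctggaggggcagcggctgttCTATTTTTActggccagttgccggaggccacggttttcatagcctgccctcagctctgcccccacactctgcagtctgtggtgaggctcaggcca
Tnnt1: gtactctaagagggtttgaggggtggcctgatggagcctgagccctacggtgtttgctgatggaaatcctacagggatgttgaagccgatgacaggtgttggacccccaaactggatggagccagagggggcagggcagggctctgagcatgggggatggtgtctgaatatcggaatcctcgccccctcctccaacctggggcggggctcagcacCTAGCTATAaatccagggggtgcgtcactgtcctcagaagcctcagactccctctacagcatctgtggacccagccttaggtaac
Tnnc1: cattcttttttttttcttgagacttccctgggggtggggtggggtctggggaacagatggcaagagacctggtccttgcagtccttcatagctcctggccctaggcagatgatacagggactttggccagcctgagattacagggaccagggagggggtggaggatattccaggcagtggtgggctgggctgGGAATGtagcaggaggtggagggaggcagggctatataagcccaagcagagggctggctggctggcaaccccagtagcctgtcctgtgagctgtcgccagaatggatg
Myl3: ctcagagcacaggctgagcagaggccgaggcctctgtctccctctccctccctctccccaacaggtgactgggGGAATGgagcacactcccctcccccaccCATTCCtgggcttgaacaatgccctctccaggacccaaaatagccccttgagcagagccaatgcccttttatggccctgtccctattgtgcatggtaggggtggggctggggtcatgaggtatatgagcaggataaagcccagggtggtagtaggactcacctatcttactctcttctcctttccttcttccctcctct
Tnni1 and Tnnt1 each hold a MEF2-like match close to the start, Tnnc1 holds an M-CAT match and Myl3 holds M-CAT matches on both strands. N stands for any base, and the middle letters of the MEF2-like match are TTTT in Tnni1 and GCTA in Tnnt1. Another Tnni1 promoter was searched, holds the same match and is not shown. No base belonged to matches of 2 motifs. A MEF2-like match was found in 10 of 25 promoters of slow fibre list genes (40.0%), in 7 of 14 of fast fibre list genes and in 21.0% of all 32851 mouse promoters in the table. M-CAT was found in 3 of the slow, in 6 of the fast (42.9%) and in 14.7% of all promoters. MEF3 was found in 2 of the slow (8.0%), in 0 of the fast and in 4.07% of all promoters. A match describes these letters only, and binding was not measured.

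Across all genes, differences between the sides did not pass the test. In edgeR's quasi-likelihood test with Benjamini-Hochberg adjustment, 0 of 12217 genes other than Myh7 passed an adjusted p of 0.05 (0.0%), and the lowest adjusted p was 0.323. At an unadjusted p below 0.05, 870 genes were higher in the high-Myh7 libraries (7.12%) and 575 lower (4.71%). DESeq2's Wald test on the same libraries called 72 genes higher (0.592%) and 37 lower (0.304%) of 12172, so the call depends on the tool. Without library 12, edgeR called 120 genes higher (0.963%) and 192 lower (1.54%) of 12463, while leaving out any other single library gave 0 calls. A slope on log2(CPM + 1) of Myh7 over all 15 libraries called 7 genes higher (0.051%) and 0 lower of 13734. The 7 were Tnni1, Tnnc1, Tnnt1, Myl2, Atp2a2, Homer2 and Nme7, of which the first 5 encode slow fibre proteins. Slow fibre genes belong to the programme of the gene that chose the sides, so their values are a description. With sides chosen by scaled CPM, library 8 took the place of library 2 on the high side and library 1 that of library 5 on the low side, and the numbers at an unadjusted p below 0.05 were 210 higher and 69 lower. Of 51 genes looked at whose log2 difference was fitted with both choices of sides, 26 had a value smaller by over 1.5 times with sides by scaled CPM and 1 a larger one, none with a changed sign. Where a log2 difference is given below for a gene that moved this far, its value with sides by scaled CPM is given too. For the other genes of the 51 the value moved by no more than 1.5 times. It was, for example, 1.26 for Mb, 1.545 for Myh2, 1.55 for Ldhb, -1.60 for Trim63 and -1.03 for Hsf2.

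No gene of the slow fibre list passed an adjusted p of 0.05 in edgeR. Of the 20 genes on the slow fibre list, all of which entered the fit, 15 had a log2 value above 0, and the median was 1.28, against -0.01 over all genes. The 5 below 0 were Csrp3, Ankrd2, Lmod2, Hspb7 and Pln. Over all genes, 6005 of 12217 had a log2 value above 0, the share to set beside such numbers in each list below. At an unadjusted p below 0.05, 8 of the 20 were higher and 0 lower, against 7.12% and 4.71% of all genes: Myl2, Myl3, Tnni1, Tnnt1, Tnnc1, Tpm3, Atp2a2 and Mb. Of these, Myl2, Myl3, Tnni1 and Tnnc1 entered the fit mainly through the high-Myh7 libraries. Tnnt1 fell to 0.603 scaled CPM in the low-Myh7 library 11. All 8 belong to the programme of the gene that chose the sides, so their number describes the split and tests nothing. The sides did not overlap in scaled CPM for 1 of the 20, Tnnc1, while over all genes 1.15% were higher and 0.598% lower without overlap. In all 5 low-Myh7 libraries, 11 of the 20 reached 1 CPM, so the other 9 entered the fit with low values on that side.

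The 3 slow troponin subunits make up the calcium switch of the thin filament. Tnni1, slow troponin I, was at 29.7, 73.4, 1.91, 1.01 and 2.76 scaled CPM in the high-Myh7 libraries and at 1.44, 0.711, 0.459, 0.743 and 0.258 in the low-Myh7 libraries. The log2 difference was 4.89 ± 1.18 (SE, edgeR adjusted p = 0.364), and library 12 lay within the low-Myh7 range. Tnnt1, slow troponin T, which ties the complex to tropomyosin, was at 73.5, 133, 2.79, 3.52 and 3.39 in the high-Myh7 libraries and at 3.41, 4.53, 0.803, 1.86 and 0.603 in the low-Myh7 libraries. Only libraries 3 and 9 exceeded every low-Myh7 library, and the log2 difference was 4.22 ± 1.18 (edgeR adjusted p = 0.364). Tnnc1, the calcium-binding troponin C of slow and cardiac muscle, was at 33.1, 91.8, 1.91, 1.22 and 2.08 in the high-Myh7 libraries and at 1.18, 1.1, 0.688, 0.743 and 0 in the low-Myh7 libraries. Its sides did not overlap, by a narrow margin in library 12, and the log2 difference was 5.08 ± 1.31 (edgeR adjusted p = 0.364). In DESeq2 the adjusted p was 0.000429 for Tnni1, 0.00647 for Tnnt1 and 0.023 for Tnnc1. Tnni1 and Tnnc1 reached at most 1.44 and 1.18 scaled CPM in the low-Myh7 libraries and entered the fit mainly through the high-Myh7 libraries. Their log2 differences and p are thus a description of uncertain size.

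The slow myosin light chains spread further over the high side. Myl2, the regulatory light chain of slow and ventricular muscle, was at 55.1, 138, 5.07, 0.338 and 13.4 scaled CPM in the high-Myh7 libraries and at 2.63, 0.711, 0.344, 0 and 0 in the low-Myh7 libraries. Myl3, the essential light chain of the same fibres, was at 111, 238, 14.2, 1.08 and 56.2 in the high-Myh7 libraries and at 0.919, 2.91, 0.459, 0.371 and 0 in the low-Myh7 libraries. For both genes libraries 3, 9, 15 and 2 exceeded every low-Myh7 library and library 12 did not. The log2 difference was 5.86 ± 1.47 for Myl2 and 6.37 ± 1.33 for Myl3, with edgeR adjusted p of 0.364 for both. Most low-Myh7 values of both genes lay below 1 scaled CPM, and both entered the fit mainly through the high-Myh7 libraries. The sizes of these differences are therefore uncertain. Myl2 did not enter the fit with sides by scaled CPM. Library 2, which held only 3.22 CPM of Myh7, had 56.2 scaled CPM of Myl3.

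The remaining slow genes differed less. Tpm3, the slow tropomyosin gene that also has cytoplasmic forms, was at 100.2, 154, 24.2, 55.9 and 29 scaled CPM in the high-Myh7 libraries and at 25.7, 48.9, 15.5, 16.8 and 26.8 in the low-Myh7 libraries. Atp2a2, the slow and cardiac calcium pump SERCA2, was at 206, 91.4, 49.4, 66.1 and 23 in the high-Myh7 libraries and at 26.2, 40, 25.6, 21.9 and 43 in the low-Myh7 libraries. Libraries 3, 9 and 12 exceeded every low-Myh7 library for Tpm3, libraries 3, 9, 15 and 12 did so for Atp2a2, and the log2 difference was 1.40 ± 0.52 for Tpm3 and 1.43 ± 0.49 for Atp2a2. Mb, which encodes the oxygen store myoglobin, was at 1826, 756, 324, 261 and 961 in the high-Myh7 libraries and at 342, 269, 286, 346 and 40.6 in the low-Myh7 libraries, a log2 difference of 1.64 ± 0.62. Mb was highest in libraries 3, 9 and 2, and libraries 15 and 12 lay within the low-Myh7 range. Myoz2, a slow Z-disc protein that binds calcineurin, ranged over 8.72 to 52.4 in the high-Myh7 libraries and over 0.517 to 22.8 in the low-Myh7 libraries, with a log2 difference of 1.30 ± 0.83. Mybpc1, the slow myosin-binding protein C, ranged over 189.6 to 1199 in the high-Myh7 libraries and over 141 to 608 in the low-Myh7 libraries.

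The other members overlapped widely. Csrp3, a muscle LIM protein of the Z-disc, ranged over 2.86 to 19.2 scaled CPM in the high-Myh7 libraries and over 0.172 to 70.4 in the low-Myh7 libraries. Ankrd2, a stretch-responsive protein of slow muscle, ranged over 8.08 to 78.6 in the high-Myh7 libraries and over 14.3 to 244 in the low-Myh7 libraries. The small heat shock protein gene Hspb7 and the actin filament gene Lmod2 likewise overlapped, with Hspb7 at 39.4 to 610.3 in the high-Myh7 and at 103 to 713 in the low-Myh7 libraries, and Lmod2 at 17.2 to 111 in the high-Myh7 and at 28.1 to 182 in the low-Myh7 libraries. Pln, the inhibitor of SERCA2, stayed at or below 2.99 in the high-Myh7 libraries and at or below 2.47 in the low-Myh7 libraries. Myom3 was at 48.8, 5.75, 5.14, 3.99 and 13.4 in the high-Myh7 libraries and at 3.28, 13.8, 0.688, 0.495 and 0.43 in the low-Myh7 libraries, so that library 10 lay among the high-Myh7 values. Casq2, Actn2, Myl6b and Myh7b also overlapped. Casq2, the slow and cardiac calsequestrin that stores calcium, ranged over 2.3 to 27.8 in the high-Myh7 and 0.861 to 9.46 in the low-Myh7 libraries, and Actn2, the Z-disc actinin of all fibres, over 185 to 764 in the high-Myh7 and 111 to 423 in the low-Myh7 libraries. Myl6b, a slow alkali light chain, ranged over 1.89 to 4.63 in the high-Myh7 and 1.38 to 3.55 in the low-Myh7 libraries. Myh7b and the cardiac Myh6 can share reads with Myh7, so no p is given for them here: Myh7b ranged over 1.32 to 6.31 in the high-Myh7 and 0.115 to 5.24 in the low-Myh7 libraries, and Myh6 over 0.927 to 4.71 in the high-Myh7 and 0 to 2.91 in the low-Myh7 libraries. Myh7b was nevertheless in the fit, with a log2 value of 0.76, and counts among the 20 slow fibre list genes and the 15 above 0.

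**Figure D2:**
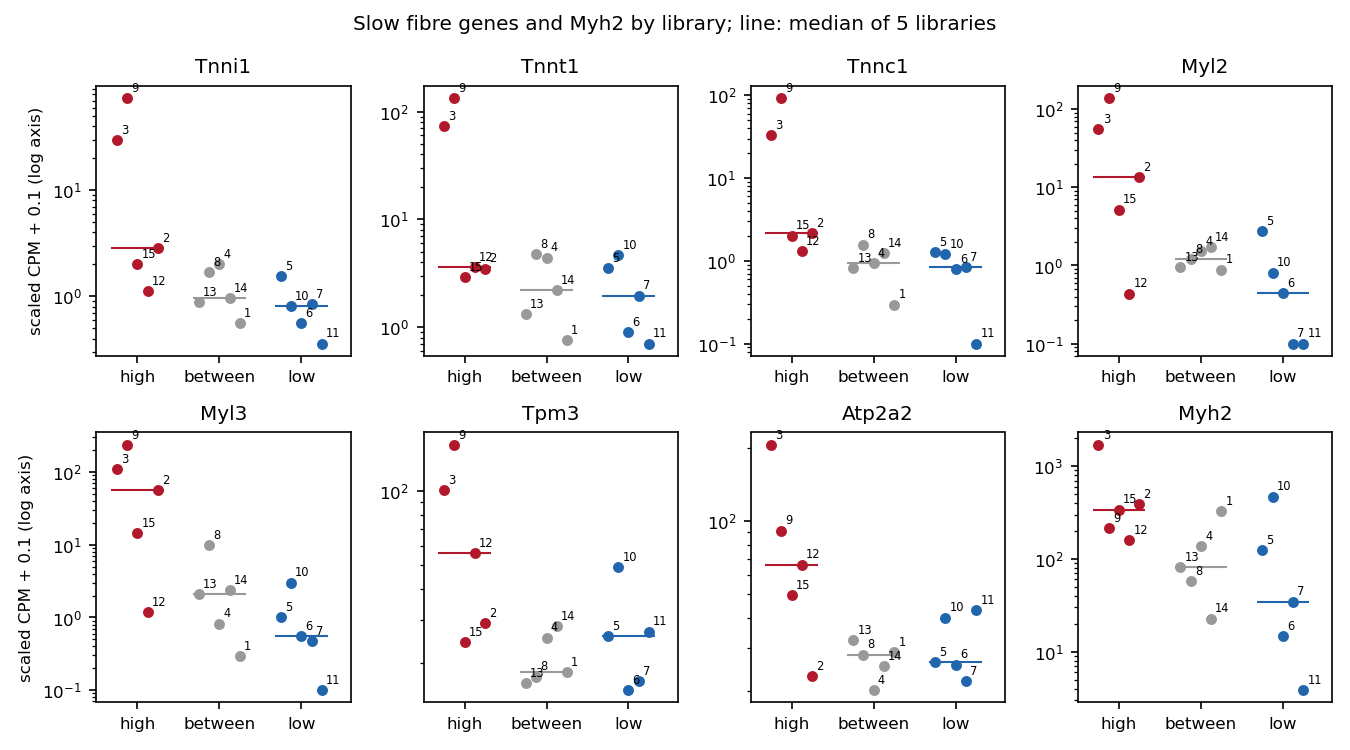
Scaled CPM plus 0.1 on log axes for 7 slow fibre genes and Myh2, by side, with the library number beside each point and a line at the median of 5 libraries. Libraries 3 and 9 lead for Tnni1, Tnnt1 and Tnnc1, libraries 3, 9, 15 and 2 lead for Myl2 and Myl3, and the 5 libraries between the sides lie near the low-Myh7 libraries for the troponin genes.

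The slow genes differed in how far their values rest on the 2 libraries with the most Myh7. Without libraries 3 and 9, a comparison added after the data were seen, the log2 difference was 1.36 for Tnni1, 1.18 for Tnnc1, 0.48 for Tnnt1, 3.09 for Myl2, 4.56 for Myl3, 0.40 for Tpm3, 0.51 for Atp2a2 and 0.88 for Mybpc1. Myl3 thus kept most of its 6.37 and Mybpc1 most of its 1.11, while the troponin genes, Tpm3 and Atp2a2 lost most of theirs. The log2 difference of Mybpc1 was 0.55 with sides by scaled CPM. Over the 15 libraries, the slope of log2 level on log2(CPM + 1) of Myh7 was 0.83 ± 0.07 for Tnni1, 0.90 ± 0.09 for Tnnc1 and 0.30 ± 0.04 for Atp2a2. The added 1 CPM draws the libraries with little Myh7 together, so these slopes do not measure proportion to Myh7. The 5 libraries between the sides had Tnni1 at 0.784, 1.6, 1.92, 0.864 and 0.457 scaled CPM, in order of falling Myh7, which is about the range of the 3 lesser high-Myh7 libraries and of the low-Myh7 libraries.

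Fast fibre genes were abundant on both sides, and no gene of the list passed the test. Of the 20 fast fibre list genes, all in the fit, 5 had a log2 value above 0, the median was -0.25, and 0 were higher or lower at an unadjusted p below 0.05. Over all genes, 7.12% were higher and 4.71% lower at that p, so 0 of 20 is no result about the list. Myh4, the IIB myosin, was at 28817, 25748, 40704, 26941 and 25141 scaled CPM in the high-Myh7 libraries and at 35204, 32460.0, 32311, 16540.0 and 31905 in the low-Myh7 libraries, a log2 difference of -0.06 ± 0.40, and of -0.12 with sides by scaled CPM. Of the counts of Myh1, Myh2, Myh4 and Myh7 together, not corrected for transcript length, Myh4 took 91.1% ± 6.58 in the high-Myh7 libraries and 96.4% ± 4.12 in the low-Myh7 libraries (SD, n = 5 each). Myh7 took at most 1.03% of them in the high-Myh7 libraries and at most 0.00472% in the low-Myh7 libraries. The lowest Myh4 share on the high side was 80.0%, in library 3.

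The intermediate fast myosins were high in single libraries of both sides. Myh2, the IIA myosin, was at 1702, 214, 339.6, 161 and 390.1 scaled CPM in the high-Myh7 libraries and at 124, 470.2, 14.6, 34.4 and 3.74 in the low-Myh7 libraries, a log2 difference of 2.09 ± 1.09 (edgeR adjusted p = 0.467). Library 10 had more Myh2 than 4 of the 5 high-Myh7 libraries, and without it each high-Myh7 library exceeded each low-Myh7 library. The log2 difference of Myh2 was 3.63 without library 10 and 1.07 without library 3. Myh1, the IIX myosin, was at 5236, 734, 1423, 2673 and 1274 in the high-Myh7 libraries and at 809.8, 3472, 318, 399.9 and 322 in the low-Myh7 libraries, with libraries 3, 12 and 10 highest. Myh8, the perinatal myosin, was at 3.88, 1.96, 2.82, 2.85 and 4.16 in the high-Myh7 libraries and at 1.71, 0.906, 0.574, 0.743 and 1.47 in the low-Myh7 libraries, which did not overlap. Myh8 entered the fit mainly through the high-Myh7 libraries, so no fold or p is given for it. Without library 10 the log2 difference of Myh1 was 2.25, and without library 3 it was 0.50, against 1.06 with all 10 libraries. Embryonic Myh3 and extraocular Myh13 overlapped between the sides, at 0.375 to 5.49 for Myh3 in the high-Myh7 and 0.0861 to 1.97 in the low-Myh7 libraries, and at 0.609 to 3.76 for Myh13 in the high-Myh7 and 0 to 4.72 in the low-Myh7 libraries.

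The other fast isoforms overlapped between the sides. Tnni2, the fast troponin I, was at 4277, 16842, 5653, 4557 and 14117 scaled CPM in the high-Myh7 libraries and at 19941, 6260.4, 15788, 20313 and 5276 in the low-Myh7 libraries. Libraries 3, 15, 12, 10 and 11 were low in Tnni2 and libraries 9, 2, 5, 6 and 7 high, so its levels divided the libraries across the sides. The number of genes with a count divided them likewise, at 18074 to 19750.0 in libraries 3, 15, 12, 10 and 11 and at 15921 to 17030.0 in libraries 9, 2, 5, 6 and 7, and its part in the Tnni2 levels was not tested. Pvalb, the calcium buffer parvalbumin of fast fibres, divided them in the same way, at 4799, 20052, 8213, 3012 and 17236 in the high-Myh7 libraries and at 28179, 4375, 19202, 16947 and 3244 in the low-Myh7 libraries. Atp2a1, the fast calcium pump, ranged over 13509 to 29831 in the high-Myh7 and 14811 to 38654 in the low-Myh7 libraries. The fast light chain genes Mylpf and Myl1 ranged over 2176 to 13448 and 2193 to 14695 in the high-Myh7 libraries and over 2389 to 13460.0 and 2338 to 12635 in the low-Myh7 libraries. Tnnt3, fast troponin T, ranged over 9069.9 to 22089 in the high-Myh7 and 12017 to 24039 in the low-Myh7 libraries, and Actn3, the fast Z-disc actinin, over 7049 to 10360.0 in the high-Myh7 and 9690.1 to 11972 in the low-Myh7 libraries. Tnnc2, Tpm1, Mybpc2, Casq1, Myoz1, Mylk2, Ryr1, Cacna1s, Cacng1 and Sln had log2 values between -0.79 for Myoz1 and 1.21 for Sln.

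Within a library, the slow member of a pair was set against the fast member of the same family, as a log2 ratio of CPM + 1. The library total cancels only where both members lie well above the added 1 CPM. Several slow members lay near or below 1 CPM in the low-Myh7 libraries, where the ratio follows the added 1 CPM and the fast member. In library 7, Myl2 was at 0 and its ratio to Mylpf was -12.92. Of 11 pairs, 11 had a higher mean log2 ratio of slow to fast in the high-Myh7 libraries, but the sides were apart in 3: Tnni1 to Tnni2, Myl2 to Mylpf and Atp2a2 to Atp2a1. The median of the 11 differences was 2.32 log2 units, against an SD of 0.98 between libraries of a side in the median ratio. It was 0.85 without libraries 3 and 9. The median ratio was -6.07, -7.00, -8.84, -8.80 and -8.97 in the high-Myh7 libraries and -9.54, -9.29, -10.35, -9.83 and -9.96 in the low-Myh7 libraries, which did not overlap. The widest difference was Myl3 to Myl1, at -7.25 ± 2.20 in the high-Myh7 and -11.64 ± 1.37 in the low-Myh7 libraries (mean ± SD, n = 5 each). Casq2 to Casq1 differed by 0.04 only. No p is given, since the slow members belong to the programme of the gene that chose the sides.

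**Figure D3:**
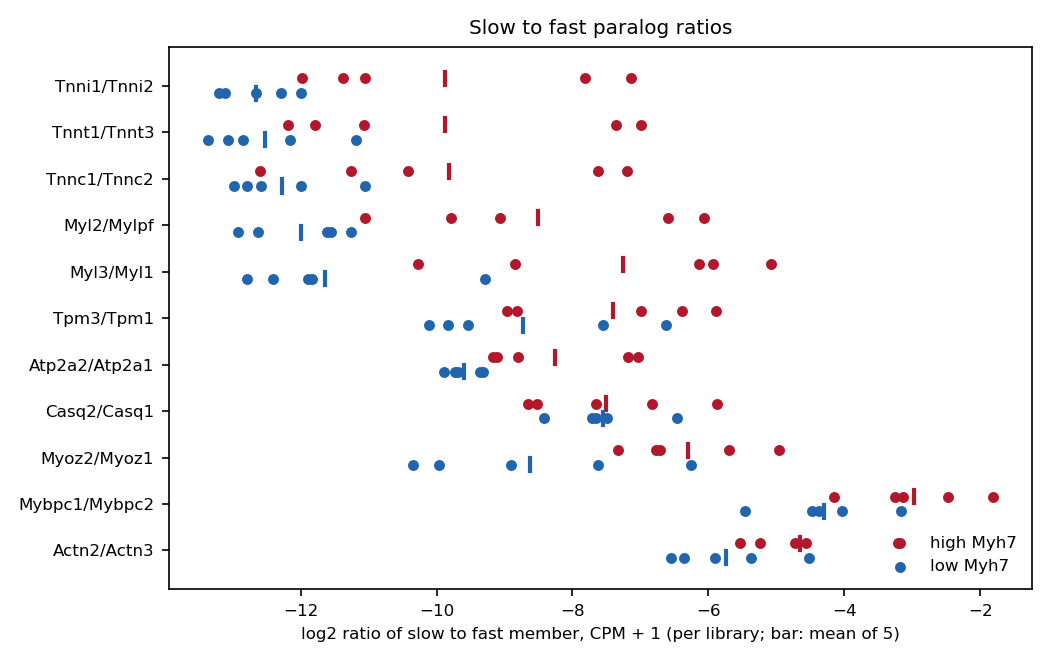
Log2 ratio of slow to fast member (CPM + 1) for 11 pairs, with 1 point per library, high-Myh7 in red above low-Myh7 in blue, and a bar at the mean of 5 libraries. The 2 rightmost red points of the troponin pairs are libraries 3 and 9, and all ratios are negative, that is, the fast member had more counts in every library.

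Among regulators of the slow programme, members differed in sign. Of 15 list genes, all in the fit, 8 had a log2 value above 0, the median was 0.49, and at an unadjusted p below 0.05 there were 5 higher and 0 lower. Over all genes, 7.12% were higher and 4.71% lower at that p. Esrrg, the oestrogen-related receptor gamma of oxidative muscle, was at 10.5, 1.63, 4.04, 1.28 and 3.44 scaled CPM in the high-Myh7 libraries and at 0.263, 1.23, 0.229, 0.371 and 0.603 in the low-Myh7 libraries. The sides were apart by a narrow margin between libraries 12 and 10. Its relative Esrrb was at 10.1, 1.25, 1.1, 2.64 and 0.806 in the high-Myh7 libraries and at 0, 0.711, 0, 0 and 0.43 in the low-Myh7 libraries, also without overlap. Esrrg and Esrrb passed the filter on low counts only through the high-Myh7 libraries, so no fold or p is given for them. They are nevertheless among the 5 higher, as is Ppargc1b, which entered the fit mainly through the high-Myh7 libraries. The count of 5 is therefore no result about the list. Esrrg and Esrrb were highest in library 3 and low in number of counts, and 11 of the 15 list genes reached 1 CPM in every low-Myh7 library.

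Rcan1 is a calcineurin inhibitor that is itself a target of NFAT. Rcan1 was at 87.9, 66.2, 56.2, 30.8 and 67.6 scaled CPM in the high-Myh7 libraries and at 29.4, 29.6, 30.7, 35.9 and 25.5 in the low-Myh7 libraries. Libraries 3, 9, 15 and 2 exceeded every low-Myh7 library and library 12 did not, and the log2 difference was 0.99 ± 0.28 (edgeR adjusted p = 0.364). Without library 12 it was 1.14 ± 0.23 (edgeR adjusted p = 0.0386). Vgll2, a TEAD cofactor of muscle, was at 78.6, 41.6, 34.3, 30.9 and 45.2 in the high-Myh7 libraries and at 35.7, 27.1, 30, 19.4 and 20.3 in the low-Myh7 libraries, with library 3 highest. Ppargc1b, which encodes the coactivator PGC-1 beta, was at 4, 1.25, 3.16, 2.64 and 2.08 in the high-Myh7 libraries and at 0.131, 1.23, 0.803, 0.495 and 2.32 in the low-Myh7 libraries. With sides by scaled CPM the log2 difference was 0.59 for Rcan1 and 0.26 for Vgll2, against 0.75 for Vgll2 with sides by CPM. Ppargc1b entered the fit mainly through the high-Myh7 libraries, so no fold or p is given for it.

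Other regulators overlapped. Ppargc1a, which encodes PGC-1 alpha, was at 14.8, 19.3, 13.2, 43.5 and 7.34 scaled CPM in the high-Myh7 libraries and at 13.3, 21.7, 6.31, 4.58 and 193 in the low-Myh7 libraries, so that library 11 alone was high. Its log2 difference of -1.32 ± 0.94 turned to 0.73 without that library. Mef2c was at 358, 169, 417, 12 and 165 in the high-Myh7 libraries and at 178, 15.2, 157, 67.7 and 12.6 in the low-Myh7 libraries, with library 12 low on the high side and libraries 10 and 11 low on the low side. Nfatc1, the calcineurin-responsive factor, ranged over 18.8 to 42.6 in the high-Myh7 and 18 to 57 in the low-Myh7 libraries. Prox1, a homeobox factor of slow fibres, stayed at or below 1.38 in the high-Myh7 and at or below 1.16 in the low-Myh7 libraries. Mef2d, Tead1, Ppard, Prkaa2, Sirt1 and Hopx had log2 values between -0.87 for Hopx and 0.58 for Tead1. The log2 difference of Mef2c was 1.32 with sides by CPM and 0.60 with sides by scaled CPM.

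Regulators known for the fast programme differed in sign as well. Of 15 list genes matched and in the fit, 9 had a log2 value above 0, the median was 0.09, and at an unadjusted p below 0.05 there were 3 higher and 0 lower. The shares over all genes were 7.12% higher and 4.71% lower. Mafa and Maf, large Maf factors known to favour IIB myosin, were among the higher. Mafa was at 109, 35.4, 99.4, 8.11 and 60.6 scaled CPM in the high-Myh7 libraries and at 40.2, 19.4, 20.4, 12.8 and 14.3 in the low-Myh7 libraries, a log2 difference of 1.50 ± 0.57. Maf was at 184, 198, 210.1, 75.5 and 175 in the high-Myh7 libraries and at 135, 58.5, 52.8, 67.3 and 111 in the low-Myh7 libraries, a log2 difference of 0.95 ± 0.35. Both were low in library 12 among the high-Myh7 libraries, and the sides overlapped through library 12 alone for Maf. Myod1, the myogenic factor that is higher in fast fibres, was at 16.4, 7.5, 13.3, 2.1 and 16.5 in the high-Myh7 libraries and at 11.6, 1.68, 1.95, 0.495 and 1.46 in the low-Myh7 libraries, with libraries 9, 12 and 5 in the overlap. Sox6, a repressor of slow genes, ranged over 33.9 to 116 in the high-Myh7 and 39.3 to 67.6 in the low-Myh7 libraries. Six4, Eya1, Eya4, Tbx15, Nfix, Hdac5, Klf5, Prdm1 and Smarcd3 had log2 values between -0.81 for Prdm1 and 0.77 for Six4. Sides by scaled CPM gave a log2 difference of 0.50 for Mafa and of 0.74 for Myod1, against 1.69 for Myod1 with sides by CPM.

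Genes of oxidative metabolism lay near the median of all genes. Of 22 Krebs cycle and respiratory chain genes 0 were higher or lower at an unadjusted p below 0.05, and the median log2 value was 0.11. Atp5a1, a subunit of ATP synthase and among its most abundant members, ranged over 784 to 1748 scaled CPM in the high-Myh7 and 677 to 1111 in the low-Myh7 libraries. Of 20 fatty acid uptake and oxidation genes 0 were higher and 2 lower, against 7.12% and 4.71% of all genes, with a median of -0.01. Pdk4, the kinase that holds back pyruvate oxidation, was at 449, 357, 314, 2031 and 99.9 in the high-Myh7 libraries and at 674, 4181, 1815, 1651 and 2426 in the low-Myh7 libraries, a log2 difference of -1.76 ± 0.73. Library 12 was the highest of the high-Myh7 side and lay among the low-Myh7 values. Mlycd, malonyl-CoA decarboxylase, ranged over 47.7 to 176 in the high-Myh7 and 104 to 239 in the low-Myh7 libraries, while Lpl, the lipoprotein lipase, ranged over 137 to 532 in the high-Myh7 and 132 to 454 in the low-Myh7 libraries. The log2 difference of Pdk4 was -1.06 with sides by scaled CPM.

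Of 22 glycolysis and glycogen genes, 1 was higher and 1 lower at an unadjusted p below 0.05, near the shares of all genes (7.12% and 4.71%), with a median of -0.10. Ldhb, the heart-type lactate dehydrogenase subunit of oxidative fibres, was at 176, 57, 33, 42.7 and 81.3 scaled CPM in the high-Myh7 libraries and at 27.2, 33.1, 12.3, 24.4 and 7.23 in the low-Myh7 libraries. The highest value was in library 3, libraries 15 and 10 met at the border, and the log2 difference was 1.87 ± 0.52 (edgeR adjusted p = 0.364, DESeq2 adjusted p = 0.0466). Gpi1, glucose phosphate isomerase of glycolysis, was at 669, 906, 695, 931 and 798 in the high-Myh7 libraries and at 1169.6, 1226, 1154, 1128 and 1268 in the low-Myh7 libraries, which did not overlap, with a log2 difference of -0.61 ± 0.25. Aldoa, muscle aldolase, ranged over 11195 to 25362 in the high-Myh7 and 14667 to 32018 in the low-Myh7 libraries, and Gapdh over 4793 to 9892 in the high-Myh7 and 6519 to 11260.0 in the low-Myh7 libraries. The log2 difference of Gpi1 was -0.33 with sides by scaled CPM.

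Atrophy and glucocorticoid-responsive genes had the lowest list median of the lists measured, -1.50 over 16 genes, with 0 of the 16 above 0. At an unadjusted p below 0.05, 0 were higher and 6 lower, against 7.12% and 4.71% of all genes. Trim63, the ubiquitin ligase MuRF1 of muscle atrophy, was at 238, 199.8, 228, 3642 and 231 scaled CPM in the high-Myh7 libraries and at 576, 6839.6, 2864, 2133 and 6002 in the low-Myh7 libraries. Library 12 stood with libraries 10, 6, 7 and 11 above the rest, library 5 was at 576, and library 8, between the sides, was at 1807. The log2 difference was -2.05 ± 0.97 (edgeR adjusted p = 0.425), and without library 12 it was -4.09 ± 0.67 (edgeR adjusted p = 0.027). Fbxo32, the ligase atrogin-1, was at 299, 138, 346, 2286 and 225 in the high-Myh7 libraries and at 308, 4069.5, 1683, 1959 and 3503 in the low-Myh7 libraries, and likewise overlapped through library 12. Its log2 difference was -1.84 ± 0.84, and -3.25 ± 0.66 without library 12 (edgeR adjusted p = 0.0389).

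Other members followed the same libraries. Cebpd, a transcription factor induced by glucocorticoids, was at 59.4, 102, 9.61, 255 and 53.3 scaled CPM in the high-Myh7 libraries and at 263, 652, 511, 612 and 276 in the low-Myh7 libraries, which did not overlap. Its log2 difference was -2.31 ± 0.68 (edgeR adjusted p = 0.364). Mstn, which encodes the growth inhibitor myostatin, was at 30.3, 40.5, 39.5, 70.4 and 8.65 in the high-Myh7 libraries and at 70.3, 123, 180.1, 134 and 136 in the low-Myh7 libraries, where libraries 12 and 5 met. Its log2 difference was -1.81 ± 0.46 (DESeq2 adjusted p = 0.0252). Foxo3, a transcription factor that drives the atrophy ligases, and Klf15, a glucocorticoid target, had log2 differences of -1.18 ± 0.53 and -1.30 ± 0.48, with library 12 at 71.5 and 142 scaled CPM and the other high-Myh7 libraries at or below 21.8 and 42.4. With sides by scaled CPM the log2 difference was -1.07 for Cebpd, -0.75 for Foxo3 and -1.19 for Fbxo32. Without library 12, edgeR called 0 of the 16 higher and 11 lower, where 0.963% of all genes were called higher and 1.54% lower. The part of the atrophy genes in the other differences between the sides was not tested.

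**Figure D4:**
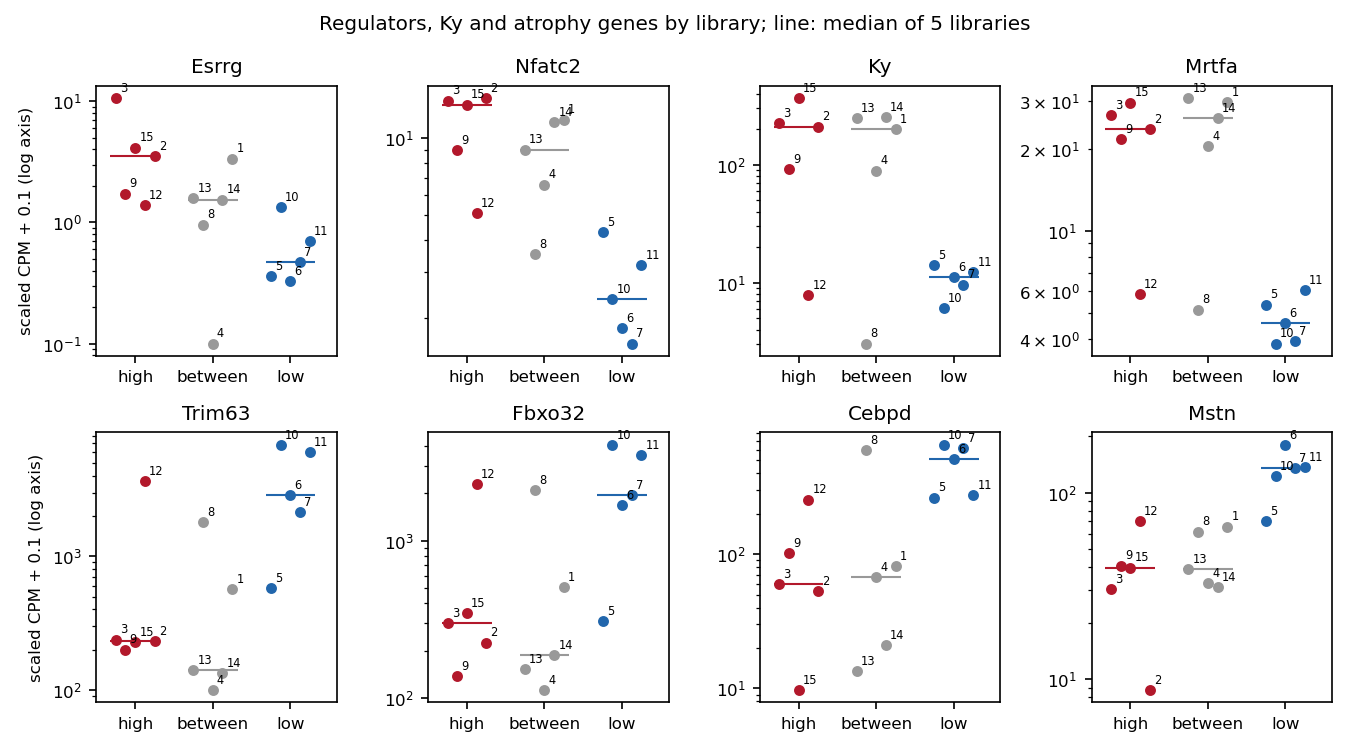
Scaled CPM plus 0.1 on log axes for Esrrg, Nfatc2, Ky, Mrtfa and 4 atrophy genes, by side, with the library number beside each point and a line at the median of 5 libraries. Libraries 12 and 8 lie with the low-Myh7 libraries for Ky, Mrtfa, Trim63 and Fbxo32, and the other 4 libraries between the sides lie with the high-Myh7 libraries for Ky and Mrtfa.

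Genes of the neuromuscular junction were measured because nerve input sets fibre type. Of 14 list genes, 13 entered the fit, 11 of them above 0, with a median log2 value of 0.65, and 3 were higher and 0 lower at an unadjusted p below 0.05. Among all genes these shares were 7.12% higher and 4.71% lower. Ache, acetylcholinesterase, was at 32.6, 15.5, 30.6, 4.12 and 22.1 scaled CPM in the high-Myh7 libraries and at 14.6, 5.5, 11.7, 5.57 and 1.98 in the low-Myh7 libraries, a log2 difference of 1.37 ± 0.58. Colq, the collagen tail that anchors it, was at 11.6, 5, 5.87, 2.16 and 13.4 in the high-Myh7 libraries and at 5.25, 2.85, 4.24, 1.49 and 1.55 in the low-Myh7 libraries, a log2 difference of 1.27 ± 0.52. Lrp4, the agrin receptor, had a log2 difference of 1.27 ± 0.56. For Ache and Colq library 12 was the lowest of the high-Myh7 side, and the sides overlapped. The most abundant members were Chrnb1 and Rapsn, a subunit of the acetylcholine receptor and its scaffold: Chrnb1 ranged over 10.6 to 80.8 in the high-Myh7 and 13.2 to 21.9 in the low-Myh7 libraries, and Rapsn over 16 to 46.7 in the high-Myh7 and 15.4 to 23.3 in the low-Myh7 libraries. Sides by scaled CPM gave log2 differences of 0.81 for Ache, 0.78 for Colq and 0.61 for Lrp4.

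Genes of muscle position in the body and of load were set beside these values, since the sampled muscle is unknown. Of 17 limb position genes 12 entered the fit, with a median log2 value of 0.19 and 1 higher at an unadjusted p below 0.05. For all genes the shares at that p were 7.12% higher and 4.71% lower. The most abundant were Tbx1, at 48.5 to 104 scaled CPM in the high-Myh7 and 55.6 to 97.9 in the low-Myh7 libraries, and Hoxc10, a hindlimb-region Hox gene, at 50.4 to 77 in the high-Myh7 and 51.7 to 83.1 in the low-Myh7 libraries. Of 12 stretch and load genes 11 entered the fit, with a median of -0.45, 1 higher and 2 lower. Des, which encodes the intermediate filament desmin, ranged over 2224 to 3662 in the high-Myh7 and 3224 to 4441 in the low-Myh7 libraries, and Nrap, a protein of growing myofibrils, over 588 to 1837 in the high-Myh7 and 733 to 2324 in the low-Myh7 libraries. Of 12 satellite cell and regeneration genes 8 entered the fit, with a median of 0.28 and 0 higher or lower. Itga7, the laminin receptor of muscle, ranged over 43.1 to 101 in the high-Myh7 and 34.4 to 54 in the low-Myh7 libraries, and Myf6, the myogenic factor of mature fibres, over 11.8 to 61.9 in the high-Myh7 and 8.99 to 145 in the low-Myh7 libraries.

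Markers of other cell types, tendon included, overlapped in their summed level between the sides, and their part in the differences was not tested. The summed endothelial level ranged over 251 to 513 scaled CPM in the high-Myh7 and 332 to 696 in the low-Myh7 libraries, and 2 of 10 genes were higher and 2 lower at an unadjusted p below 0.05. Over all genes 7.12% were higher and 4.71% lower, so counts of 1 or 2 in such short lists are no result about the lists. The fibroblast and matrix sum ranged over 509 to 1239 in the high-Myh7 and 361 to 1539.9 in the low-Myh7 libraries, with 1 of 10 higher and 0 lower. That gene was Postn, the matrix protein periostin, at 3.56, 5, 5.43, 3.58 and 3.05 in the high-Myh7 and 2.1, 1.62, 1.84, 1.36 and 0.861 in the low-Myh7 libraries, without overlap. Its log2 difference was 1.36, and 0.51 with sides by scaled CPM. The smooth muscle and pericyte sum ranged over 2463 to 3992 in the high-Myh7 and 3442 to 4646 in the low-Myh7 libraries, and the macrophage sum over 36.7 to 153 in the high-Myh7 and 42.5 to 160.3 in the low-Myh7 libraries, each with 0 genes higher or lower. Most of the smooth muscle and pericyte sum was Des, the desmin gene also named above among the load genes, so it does not measure the content of these cells. The next member, Rgs5, ranged over 50.9 to 208 in the high-Myh7 and 64.6 to 247 in the low-Myh7 libraries. The adipocyte sum ranged over 314 to 1004 in the high-Myh7 and 279.8 to 821 in the low-Myh7 libraries, with 2 of 11 higher, Scd1 and Adrb3, and 0 lower. Scd1, the stearoyl-CoA desaturase, was at 109, 22.9, 651, 100.3 and 87.2 in the high-Myh7 and 70.4, 25.2, 18.4, 31.2 and 19.3 in the low-Myh7 libraries.

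Tendon markers were higher in some libraries of both sides. The tendon sum ranged over 27.5 to 259 scaled CPM in the high-Myh7 and 7.32 to 127 in the low-Myh7 libraries, with medians of 106 and 32.1. All 6 of the 9 genes that entered the fit had a log2 value above 0, with a median of 0.80, and 1 was higher and 0 lower at an unadjusted p below 0.05, against 7.12% and 4.71% of all genes. Fmod, the tendon proteoglycan fibromodulin, was at 63.3, 50.3, 138, 19 and 3.01 in the high-Myh7 and 37.6, 4.4, 9.06, 4.33 and 1.21 in the low-Myh7 libraries, so library 2 lay among the low-Myh7 values and library 5 among the high-Myh7 values. Its log2 difference was 2.23, 3.45 without library 5 and 1.31 with sides by scaled CPM. Lymphocyte genes summed to 6.29 to 191 in the high-Myh7 and 6.53 to 100.5 in the low-Myh7 libraries, and the 3 of 10 in the fit gave 0 higher or lower. Red blood cell genes summed to 17.5 to 359.9 in the high-Myh7 and 30.4 to 343 in the low-Myh7 libraries, and Schwann cell and nerve genes to 48.1 to 142 in the high-Myh7 and 39.1 to 209 in the low-Myh7 libraries, each with 0 higher or lower. Cartilage and bone genes reached at most 27.8, neutrophil genes 21.9 and keratinocyte genes 36.0 summed scaled CPM in the high-Myh7 libraries, and at most 9.06, 9.12 and 23.7 in the low-Myh7 libraries.

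Interferon response genes had the highest list median, 1.58 over 8 of 11 genes in the fit, with 3 higher and 0 lower at an unadjusted p below 0.05. The shares of all genes at that p were 7.12% higher and 4.71% lower. Only 3 of the 11 reached 1 CPM in every low-Myh7 library. Bst2, an interferon-induced membrane protein, ranged over 4.44 to 35.1 scaled CPM in the high-Myh7 and 3.95 to 10.6 in the low-Myh7 libraries. Immediate early genes had a median of -0.99 with 0 higher and 1 lower of 11, and Nr4a1, the nuclear receptor among them, ranged over 110.2 to 374 in the high-Myh7 and 24.3 to 730.0 in the low-Myh7 libraries, while Btg2 ranged over 7.2 to 184 in the high-Myh7 and 20.4 to 440.2 in the low-Myh7 libraries. Clock genes had a median of -0.12 over 12 genes with 1 higher and 0 lower, and Tef ranged over 200.2 to 270.4 in the high-Myh7 and 178 to 317 in the low-Myh7 libraries. Of the reprogramming factors, Klf4 ranged over 6.17 to 31.1 in the high-Myh7 and 4.36 to 18.9 in the low-Myh7 libraries and Myc over 1.5 to 44.4 in the high-Myh7 and 7.8 to 22.4 in the low-Myh7 libraries, and library 12 had the highest Sox2, 14.2, and Pou5f1, 4.46, of the 15 libraries.

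**Figure D5:**
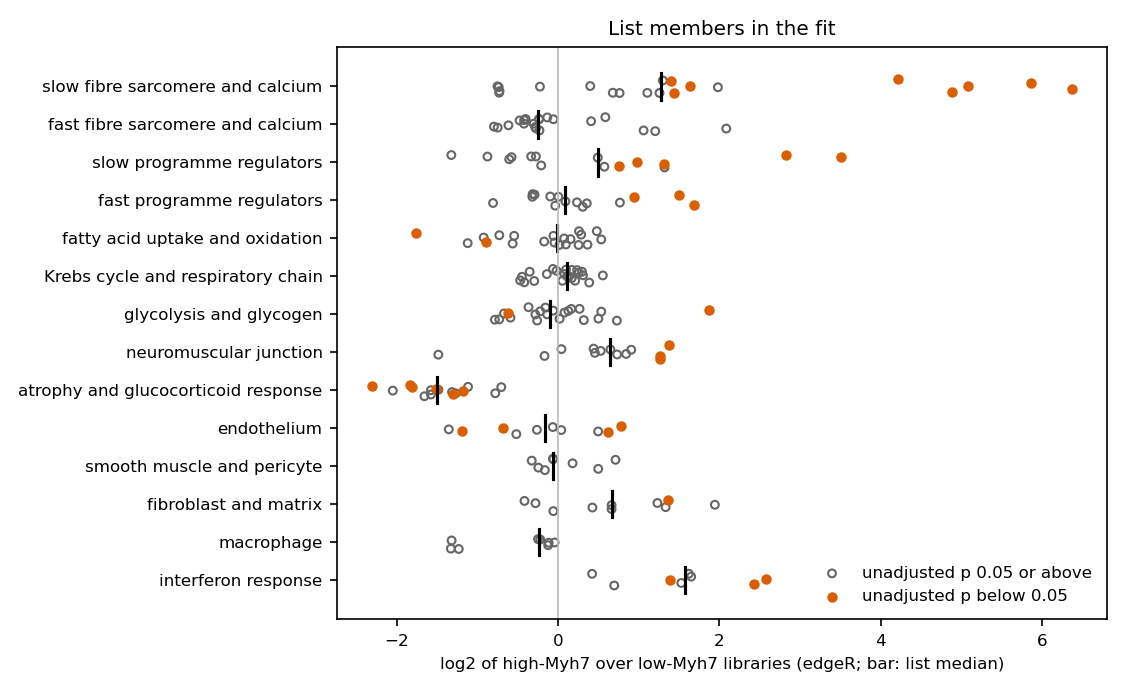
Log2 of high-Myh7 over low-Myh7 libraries (edgeR) for the members of 14 gene lists, with 1 point per gene, a bar at the list median and filled points at an unadjusted p below 0.05. The slow fibre list reaches furthest right, at 6.37 for Myl3, the fast fibre list lies around -0.25, and the atrophy list lies wholly left of 0. None of the points passed an adjusted p of 0.05.

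The genes with the smallest p in the fit were not sarcomere genes, and they were chosen for mention after their values were seen. Nectin1, a cell adhesion gene, was at 3.56, 3.88, 1.84, 9.53 and 2.29 scaled CPM in the high-Myh7 and 0.394, 0.388, 0.344, 0.743 and 0.43 in the low-Myh7 libraries, so that it passed the filter on low counts only through the high-Myh7 libraries, and no fold or p is given for it. Nav2, a neuron navigator gene, was at 19.7, 5.75, 13.1, 7.98 and 9.51 in the high-Myh7 and 1.71, 3.56, 1.03, 1.36 and 2.41 in the low-Myh7 libraries, a log2 difference of 2.41 ± 0.43. Nfatc2, an NFAT factor downstream of calcineurin, was at 13.9, 8.88, 13.4, 5 and 14.2 in the high-Myh7 and 4.2, 2.26, 1.72, 1.49 and 3.1 in the low-Myh7 libraries, a log2 difference of 2.07 ± 0.38. The sides of these 3 genes did not overlap. Hjurp, a centromere chaperone gene, was also apart, with a log2 difference of 2.26 ± 0.45. With sides by scaled CPM the log2 difference was 1.29 for Nav2, 1.12 for Nfatc2 and 1.36 for Hjurp. Serpinb1a, a protease inhibitor gene, ranged over 3.25 to 7.78 in the high-Myh7 and 0.263 to 1.42 in the low-Myh7 libraries, also apart.

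In 2 further genes only library 12 broke the separation. Ky, a muscle protein gene named for the kyphoscoliosis mouse, was at 224, 91.9, 365, 7.78 and 210.4 scaled CPM in the high-Myh7 and 13.9, 5.95, 11.1, 9.53 and 12.2 in the low-Myh7 libraries, a log2 difference of 4.04 ± 0.75 (edgeR adjusted p = 0.323, and 0.00463 without library 12). Mrtfa, an actin-regulated coactivator of SRF, was at 26.4, 21.6, 29.4, 5.75 and 23.5 in the high-Myh7 and 5.25, 3.75, 4.47, 3.84 and 5.94 in the low-Myh7 libraries, a log2 difference of 2.15 ± 0.39 (edgeR adjusted p = 0.323, and 0.00467 without library 12). The log2 difference without the 2 libraries of highest Myh7 was 4.14 for Ky and 2.01 for Mrtfa. With sides by scaled CPM, where library 8 is on the high side, it was 1.52 for Ky and 0.88 for Mrtfa (edgeR adjusted p = 0.999 for both). The 5 libraries between the sides had Ky at 248, 2.95, 89, 253 and 201 and Mrtfa at 30.5, 5.03, 20.3, 25.7 and 29.6, in order of falling Myh7. Library 8 alone of these lay with the low-Myh7 libraries, and it was also the one of the 5 with Trim63 above 1000 scaled CPM.

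Genes lower in the high-Myh7 libraries included Ier3 and Hsf2, without overlap. Ier3, a stress-inducible survival gene, was at 3.95, 6, 4.63, 8.99 and 4.5 scaled CPM in the high-Myh7 and 14.8, 17.3, 15.9, 24.6 and 14.1 in the low-Myh7 libraries, a log2 difference of -1.67 ± 0.30 (edgeR adjusted p = 0.323). Hsf2, a heat shock transcription factor, was at 15.9, 16.1, 15.4, 36.6 and 13.3 in the high-Myh7 and 41.2, 59, 55.9, 57.6 and 61.6 in the low-Myh7 libraries, a log2 difference of -1.54 ± 0.31. In both genes library 12 was the highest of the high-Myh7 libraries. For Ier3 the log2 difference was -0.93 with sides by scaled CPM.

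The gene whose levels ranked most like Myh7 over all 15 libraries was Tnni1, and 3 of the 10 highest ranked were slow fibre genes, Tnni1, Tnnc1 and Myl3. Tnni1 and Tnnc1 reached the mean of 5 CPM only through libraries 3 and 9. Among 8407 genes with a mean of 5 CPM or more, Spearman's rho with Myh7 was 0.94 for Tnni1, 0.85 for Ephx1, 0.84 for Tnnc1, 0.82 for Myl3, 0.81 for Podxl, 0.80 for Homer2, 0.80 for Ly6e, 0.79 for Anxa2, 0.78 for Acvrl1 and 0.77 for Sptan1. These 15 points share the library total in CPM and come from unknown genotypes, so rho is a description. With scaled CPM rho was 0.86 for Tnni1, 0.82 for Tnnc1, 0.76 for Myl3, 0.74 for Ephx1, 0.73 for Homer2 and 0.56 for Ly6e. Homer2, a scaffold of calcium channels, was at 16.2, 12.1, 13.1, 6.56 and 6.58 scaled CPM in the high-Myh7 and 4.6, 4.33, 3.44, 4.33 and 2.24 in the low-Myh7 libraries, which did not overlap, with a log2 difference of 1.48 ± 0.34. Podxl, a sialomucin of endothelial and other surfaces, was at 50.4, 43.5, 21.2, 7.24 and 17.6 in the high-Myh7 and 12.3, 4.72, 2.06, 6.19 and 3.87 in the low-Myh7 libraries, and Ephx1, microsomal epoxide hydrolase, at 13.1, 19.4, 12.7, 11 and 10.2 in the high-Myh7 and 11.3, 2.85, 4.01, 7.06 and 1.72 in the low-Myh7 libraries. The lowest rho was -0.76 for Sra1, -0.66 for Zfp281, Ier3 and Odf3l2 and -0.65 for Zfp189. Scaled CPM gave -0.425 for Sra1, -0.386 for Zfp281, -0.60 for Ier3 and Zfp189 and -0.57 for Odf3l2. Odf3l2 was at 15, 56.4, 3.6, 64 and 15.6 in the high-Myh7 and 282, 72.6, 901, 131 and 107 in the low-Myh7 libraries, apart by a narrow margin between libraries 12 and 10.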

How the data were processed

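Per the labels' protocols, RNA was extracted from frozen muscle and a company sequenced the cDNA libraries. The authors deposited estimated counts per gene (56941 gene rows, of which 310 carry no name), and 23.2% of the values above 0 were not whole within 1e-06. The submitters' processing notes name GRCm39 and DESeq2, and the aligner, counter, annotation and strand setting are not given in the sources, so antisense, overlapping and paralogous genes are uncertain. The column names hold no genotype, and libraries were not assigned to genotypes. Of 105 pairs of libraries, 0 held identical values, with a chi-square per gene of 30.5 or more.

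CPM used the column total. Estimated counts were rounded, filtered with filterByExpr and tested with edgeR 4.0.16 (TMM, quasi-likelihood test, Benjamini-Hochberg) in R 4.3.3, with Myh7 left out. The step was tested on simulated counts with known fold differences, where genes varied independently and with a single dispersion. Genes of these libraries do not vary so, and the simulation checks the code only. DESeq2 1.42.0 was an alternative, and other steps used Python 3.11.15. Ratios used log2(CPM + 1), and the exact permutation tests planned for them were left out, because the slow members follow the gene that chose the sides.

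Members and gene lists were chosen with earlier results of these data known. Named by rule were the myosins, all slow, fast and regulator genes, up to 2 abundant members of each other list, and the 10 highest and 5 lowest ranked genes by likeness to Myh7. Other named genes were chosen after their values were seen. Of the deposited columns, 67 of other tissues were not used. Some items that the rule names are not reported here.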

Additional observations from a re-analysis of the deposited data

Results flagged for a closer look

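Within each side, the gap between the highest or lowest of the 5 libraries and its neighbour, divided by the range of the side, was set against Dixon's 95% critical value of 0.71 for the 53 genes whose log2 difference was looked at and for Myh7. That value flags about 1 in 20 groups only where values are independent and normally distributed. Here they are scaled CPM without a log, of genes that partly vary together and were partly chosen after their values were seen. The 24 of 108 sides that stood out are thus values to look at and cannot be set against chance. Library 12 stood out 8 times on the high side and library 5 stood out 5 times on the low side.

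On the high side, library 12 was far above the other 4 for Trim63 (3642 scaled CPM, next 238), Fbxo32 (2286, next 346), Pdk4 (2031, next 449), Klf15 (142, next 42.4), Foxo3 (71.5, next 21.8), Hsf2 (36.6, next 16.1) and Nectin1 (9.53, next 3.88), and below them for Maf (75.5, next 175). Library 3 was far above for Myh2 (1702, next 390.1) and Esrrb (10.1, next 2.64), and library 15 for Myh4 (40704, next 28817).

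On the low side, library 5 was far above the other 4 for Fmod (37.6 scaled CPM, next 9.06), Mafa (40.2, next 20.4), Myod1 (11.6, next 1.95) and Myl2 (2.63, next 0.711), and below them for Hsf2 (41.2, next 55.9). Library 10 was far above for Myh1 (3472, next 809.8), Mybpc1 (608, next 186) and Myh2 (470.2, next 124). Library 11 was far above for Ppargc1a (193, next 21.7) and below for Mb (40.6, next 269). Library 7 was far above for Nectin1 (0.743, next 0.430) and below for Myh4 (16540.0, next 31905). Library 6 was far above for Odf3l2 (901, next 282).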

How the results depend on the processing

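The number of genes called at an adjusted p of 0.05 was 0 higher and 0 lower in edgeR. It was 72 higher and 37 lower with DESeq2's Wald test, 7 higher and 0 lower for the slope over 15 libraries, and, in an alternative chosen after seeing the data, 6 higher and 13 lower without the 3 libraries with the highest Trim63 (10, 11 and 12). Leaving out 1 library at a time gave 0 to 120 higher and 0 to 192 lower, and every call came without library 12. It was 0 and 0 with DESeq2 size factors, no filter, no mitochondrially encoded genes, sides by scaled CPM, the mitochondrial share as a covariate or a 2-fold minimum, and without libraries 3 and 9. The median paralog difference of 2.32 was 2.52 with a pseudocount of 0.5 CPM, 1.80 to 2.76 with 1 library left out and 0.85 without libraries 3 and 9, added after seeing the data.

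Over 53 genes and 19 alternatives, 935 of 1004 values kept their direction and side of the threshold, 64 newly passed it and 5 changed sign. The log2 difference of Myh4 ran from -0.22 without library 7 to 0.00049 without library 5, and was 0.0050 without libraries 3 and 9 and 0.038 without the 3 highest-Trim63 libraries. That of Ppargc1a ran from -1.87 without library 12 to 0.73 without library 11, and was 0.70 without the 3 highest-Trim63 libraries. With sides by scaled CPM, 26 of 51 log2 differences were smaller by over 1.5 times and 1 larger, and 27 of 52 were smaller without mitochondrially encoded genes, which gave the same sides. Leaving out 1 library moved 0 to 5 of 53 by over 1.5 times with the sign kept. The cause was not tested. A covariate for Y-linked counts was not run, because all 10 libraries carry them. No paired analysis was possible because the column names carry no replicate number. Low-side Myh7 rests on 1 to 13 counts, which limits the order of those libraries.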
